A study of Mus musculus with 8 samples.

Results

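The genes described here are 31 nuclear receptors and nuclear receptor coregulators, out of 41444 genes in an RNA-seq table of mouse macrophages. They were chosen by symbol from a list of names and not by their values, though earlier results of these data were known. The list holds 19 receptors, without the liver X receptors and the Nr4a and Nr1d families, and 12 coactivators and corepressors. All 31 were found in the table. The macrophages were grown from the bone marrow of wild-type C57BL/6 mice in medium with the growth factor M-CSF. The treated cells received SLIT2, a secreted protein that binds ROBO receptors and is known for guiding axons, at 6 nM for 16 hours. The control cells, of the same genotype and strain, received vehicle. Each group held 4 samples. The labels give neither the age or sex of the mice nor the number of animals behind the samples. The comparison asks which of these genes differ in expression after SLIT2.

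Nuclear receptors are transcription factors that bind DNA at short repeats of the hexamer AGGTCA or at related sites, and many are switched by a small lipid-soluble ligand. The PPARs respond to fatty acids and their derivatives, the RARs to retinoic acid, and others to steroids, thyroid hormone or vitamin D, while the orphan receptors have no agreed natural ligand. Many pair with RXR. Without ligand several of them hold corepressor complexes built on NCoR proteins, and with ligand they exchange these for coactivators such as the p160 proteins and Mediator. In macrophages PPARs are known for controlling lipid handling and alternative activation, and the glucocorticoid receptor for restraining inflammatory genes.

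Expression is given as rlog (regularized log) values, a log2 scale that pulls low genes towards their own mean. The values are not scaled by gene length, so levels are compared between samples of a gene and never between genes. Read counts were not analysed here and the depth per sample is unknown. A gene was tested with limma where its mean rlog reached 4, and 27 of the 31 qualified. A difference is the SLIT2 mean minus the vehicle mean on the log2 scale, and a gene passed at a Benjamini-Hochberg adjusted p under 0.05 over the 11851 genes tested. In both groups replicates 1 and 2 lay apart from replicates 3 and 4, and these pairs are called replicate sets. Xist, the RNA of the inactive X chromosome, was at 12.7 on average in replicates 3 and 4 and at 7.54 in replicates 1 and 2. The Y-linked gene Ddx3y had the reverse pattern, at 6.23 on average for replicates 3 and 4 and 10.8 for replicates 1 and 2. The fit with replicate number as a block removes the difference between the sets, and its adjusted p is given where it alters a call. The summed level of the macrophage markers ran from 19.2 to 19.7 in SLIT2 samples and from 19.1 to 19.6 in vehicle samples on the log2 scale. Such sums are compared between samples of a list and not between lists. Csf1r, the M-CSF receptor gene, differed by -0.08 (adjusted p = 0.902) and Adgre1, the gene of the surface marker F4/80, by 0.11 (adjusted p = 0.820).

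Of the 27 genes tested, 3 passed, which were Ppard with a rise and Rora and Ncoa4 with a fall. This is 11.1% of the members, while 13.3% of all genes tested passed (6.76% higher and 6.58% lower). With the replicate block 11 members passed, 4 higher and 7 lower, or 40.7%, against 33.0% of all genes (16.6% higher and 16.4% lower). Among the 16 receptors tested, 4 were higher and 3 lower with the block. Among the 11 coregulators tested, 4 were lower and none higher, and all 4 are Ncoa genes. At 6 members, 22.2%, no SLIT2 value overlapped the vehicle range, against 20.5% of all genes. The 6 were Ppard, Rarg, Thra, Rora, Ncoa3 and Ncoa4. The median size of the difference, regardless of sign, was 0.13 for members and 0.11 for all genes. Without the block and in the overlap count, the shares of members were near those of all genes. With the block 43.8% of the receptors tested and 36.4% of the coregulators tested passed. The 36.4% were all lower, against 16.4% of all genes lower with the block.

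**Figure D1:**
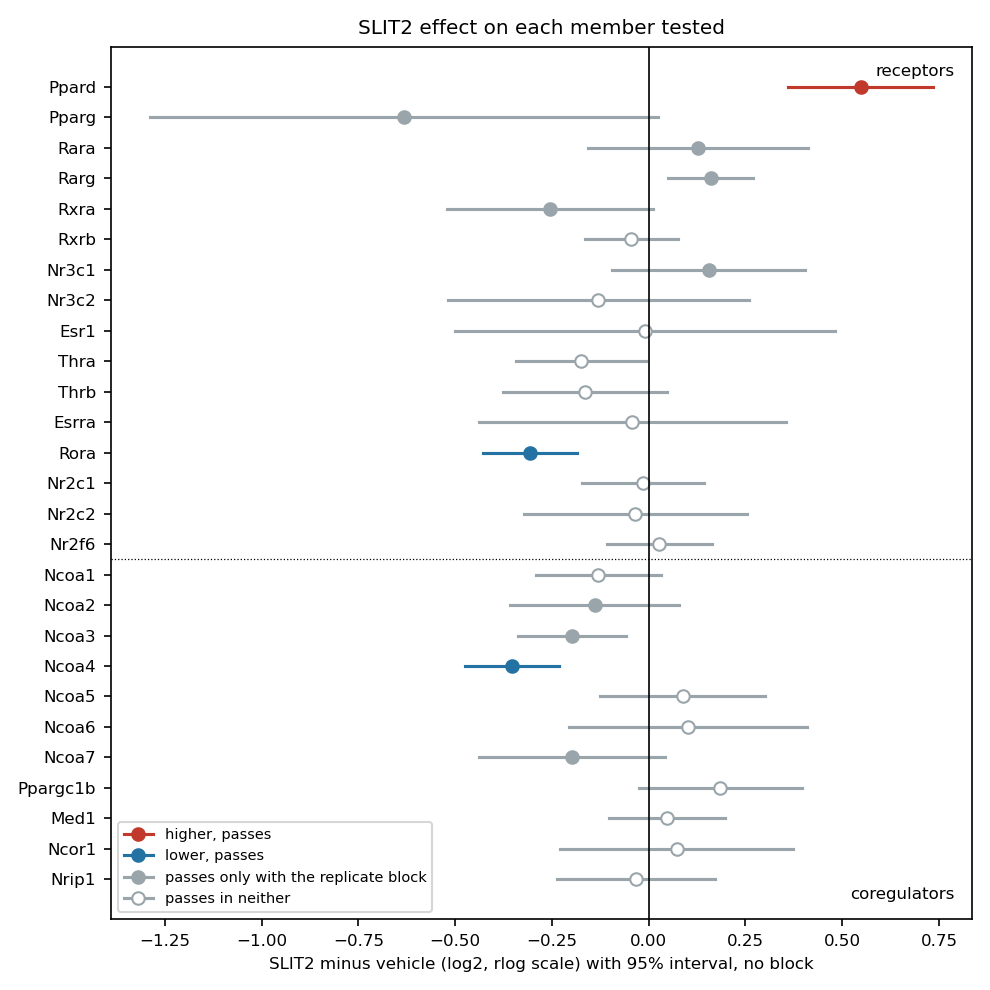
SLIT2 minus vehicle difference of the 27 members tested (log2, rlog scale, points) with the 95% interval of the limma fit without a block (lines), receptors above the dotted line and coregulators under it. Ppard lies right of 0 and Rora and Ncoa4 lie left of it in colour, and the filled grey points passed only with the replicate block.

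Of the fatty acid receptors, Ppard was raised by SLIT2, Pparg was lower within both replicate sets, and Ppara was not expressed at a testable level. Ppard encodes PPAR-delta, a receptor of fatty acids that is found in most tissues (ENSMUSG00000002250, chromosome 17, 28232700 to 28301474 in GRCm38). Its values were 10.11, 10.04, 9.84 and 9.80 in SLIT2 replicates 1 to 4, against 9.46, 9.37, 9.31 and 9.46 in vehicle replicates 1 to 4. Every SLIT2 sample lay above every vehicle sample. The mean was 9.95 ± 0.15 with SLIT2 and 9.40 ± 0.073 with vehicle (SD, n = 4 each), a difference of 0.55 (SE 0.081, adjusted p = 0.00338) or 1.46-fold on the rlog scale. Replicates 3 and 4 gave 0.44, and replicates 1 and 2 gave 0.66. In bulk samples, fewer cells of a type and less RNA per cell cannot be told apart, and this holds for every difference given here.

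Pparg, the gene of PPAR-gamma, which drives fat storage genes and is raised in alternatively activated macrophages (ENSMUSG00000000440, chromosome 6, 115360951 to 115490399), varied most between the sets. It stood at 8.90, 9.01, 9.81 and 9.92 in SLIT2 replicates 1 to 4, against 9.86, 9.61, 10.16 and 10.54 in vehicle replicates 1 to 4. The groups overlapped over all samples, while within each set both SLIT2 samples lay under both vehicle samples. The means were 9.41 ± 0.53 with SLIT2 and 10.04 ± 0.40 with vehicle (SD, n = 4 each). The difference of -0.63 had a 95% interval of -1.29 to 0.02 and did not pass (SE 0.29, adjusted p = 0.207). It passed with the replicate block (adjusted p = 0.00365). Fitted alone, replicates 3 and 4 gave -0.49 (adjusted p = 0.0455) and replicates 1 and 2 gave -0.78 (adjusted p = 0.00234), where each fit rests on the spread within duplicates. Ppara, the receptor best known from liver fat oxidation, had values of -1.55 to -1.53 in all libraries and was not tested.

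The promoters of Ppard and Pparg are shown because these paralogs had differences of opposite sign. The windows run from 250 bases before to 50 bases after a RefSeq start on GRCm38.p6, on the plus strand, and capitals mark the receptor hexamer AGGTCA and the GC box GGGCGG, read on both strands. Pparg has other annotated starts that are not shown.
Ppard (chr17:28232504-28232803): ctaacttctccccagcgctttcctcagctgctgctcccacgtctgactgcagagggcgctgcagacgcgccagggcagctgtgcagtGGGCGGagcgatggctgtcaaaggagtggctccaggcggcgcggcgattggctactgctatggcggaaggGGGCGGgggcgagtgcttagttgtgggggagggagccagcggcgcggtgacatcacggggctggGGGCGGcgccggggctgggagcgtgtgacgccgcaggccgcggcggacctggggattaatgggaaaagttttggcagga
Pparg (chr6:115360894-115361193): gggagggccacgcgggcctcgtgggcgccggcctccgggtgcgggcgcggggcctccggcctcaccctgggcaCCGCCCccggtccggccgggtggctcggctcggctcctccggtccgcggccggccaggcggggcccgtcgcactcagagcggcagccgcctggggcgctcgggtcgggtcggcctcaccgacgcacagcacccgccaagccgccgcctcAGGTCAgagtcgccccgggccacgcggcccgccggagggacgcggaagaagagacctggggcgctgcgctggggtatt
The Ppard window held 3 GC boxes and no hexamer. The Pparg window shown held 1 hexamer, 28 bases before the start, and 1 GC box. Another Pparg window (chr6:115362099-115362398) held 1 hexamer and 2 GC boxes, and a further one (chr6:115421816-115422115) held neither motif. Windows were found for 26 of the 31 genes, 41 windows in all. The hexamer occurred in 8 of the 41 and in 16.3% of the 32851 windows of all genes. The GC box occurred in 24 of the 41 and in 35.7% of all windows, and the median GC content was 63.3% in member windows and 52.7% in all. The STAT palindrome TTCNNNGAA was found in 4 of the 41 windows and in 8.3% of all. The direct repeat DR1, which is a pair of AGGTCA hexamers with a single base between them and is bound by PPAR and RXR pairs, and the glucocorticoid receptor palindrome were found in 0 of the 41, and in 0.0396% and 0.475% of all windows.

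**Figure D2:**
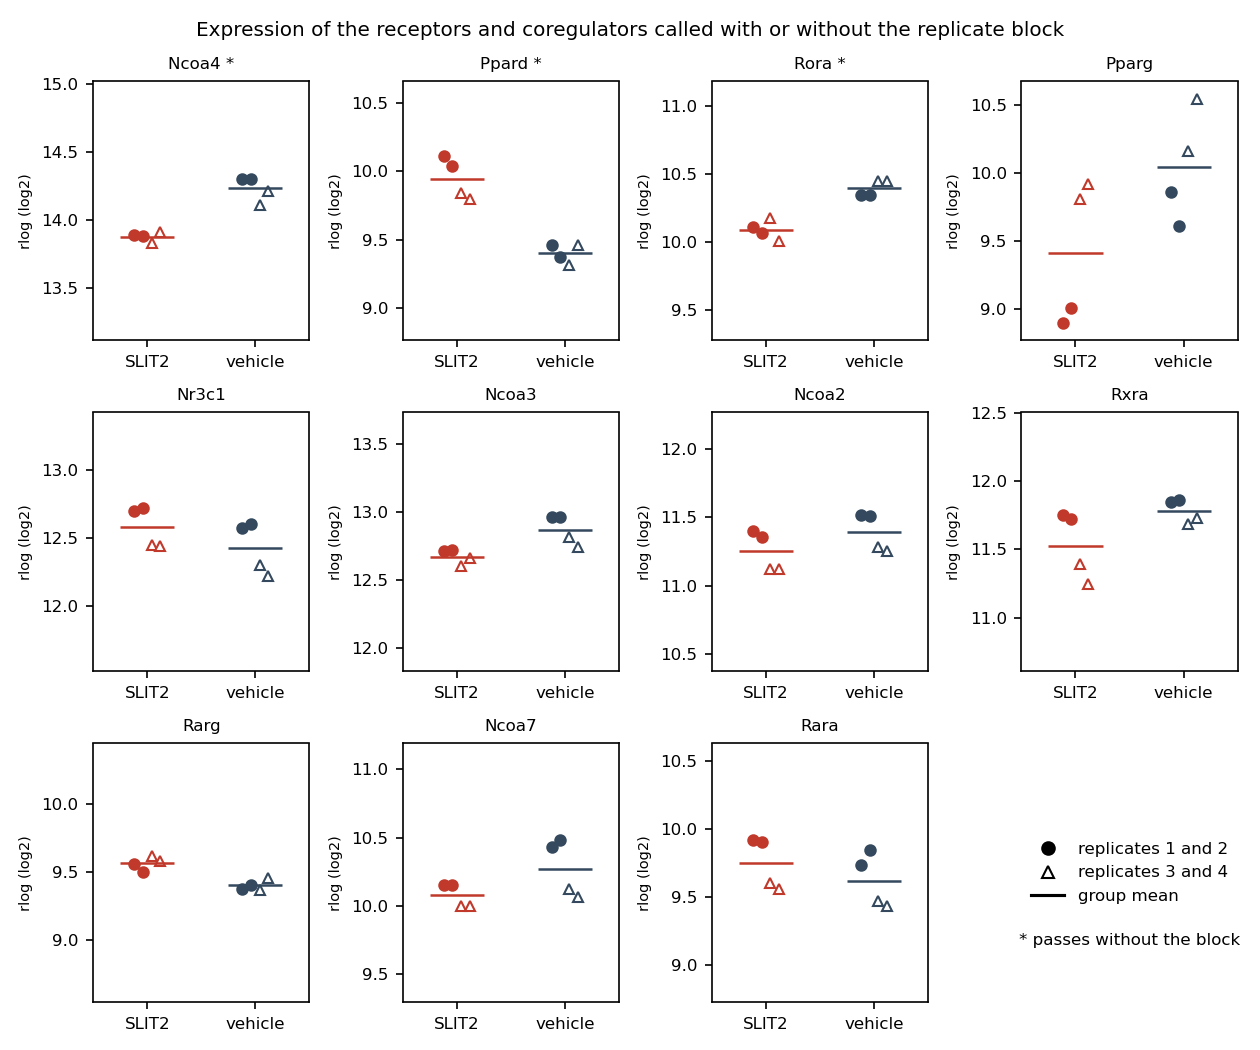
Expression (rlog, log2) of the 11 members that passed with the replicate block, by group, where filled circles are replicates 1 and 2, open triangles are replicates 3 and 4 and lines are group means; each vertical axis spans the same range. In Ppard, Rarg, Rora, Ncoa3 and Ncoa4 the groups lie apart. In Pparg, Rara, Rxra, Nr3c1, Ncoa2 and Ncoa7 the means of the sets lie further apart than those of the groups.

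The retinoic acid receptor genes showed small positive differences that passed only with the block. Rarg, the gene of RAR-gamma, had 9.56, 9.50, 9.62 and 9.58 in SLIT2 replicates 1 to 4, against 9.38, 9.41, 9.37 and 9.46 in vehicle replicates 1 to 4. The groups did not overlap, with the lowest SLIT2 sample at 9.50 and the highest vehicle sample at 9.46. The difference was 0.16 (SE 0.048, adjusted p = 0.0668, and 0.0327 with the block). Rara, the gene of RAR-alpha, which is the main retinoic acid receptor of myeloid cells, had 9.92, 9.90, 9.60 and 9.56 with SLIT2, against 9.73, 9.84, 9.47 and 9.43 with vehicle. Its groups overlapped and its difference was 0.13 (SE 0.12, adjusted p = 0.593, and 0.0465 with the block). Without the block it was 0.07, 0.08, 0.18 and 0.19 when SLIT2 replicates 1, 2, 3 and 4 were left out in turn. It was 0.165, 0.20, 0.08 and 0.07 when vehicle replicates 1, 2, 3 and 4 were left out in turn. Rarb, itself a classical retinoic acid target, was listed at 0 in every library.

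The RXRs, the shared partners of PPARs, RARs, the vitamin D receptor and thyroid hormone receptors, had negative differences. Rxra stood at 11.75, 11.72, 11.39 and 11.25 in SLIT2 replicates 1 to 4, against 11.85, 11.86, 11.69 and 11.73 in vehicle replicates 1 to 4. Within each set the SLIT2 samples were the lower ones, and over all samples the groups overlapped. The difference was -0.26 (SE 0.12, adjusted p = 0.208, and 0.0270 with the block). Without SLIT2 replicate 4 it was -0.16, and without SLIT2 replicate 1 it was -0.33. Replicates 3 and 4 gave -0.39 and replicates 1 and 2 gave -0.12, and the test of that inequality gave an adjusted p of 0.0572. Rxrb differed by -0.05 (adjusted p = 0.667), with a 95% interval of -0.17 to 0.08. Replicates 3 and 4 gave -0.15 and replicates 1 and 2 gave 0.06 (adjusted p of the inequality = 0.0821).

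Among the steroid, thyroid hormone and vitamin D receptors none passed without the block. Nr3c1 encodes the glucocorticoid receptor (ENSMUSG00000024431, chromosome 18, 39410545 to 39519421). It had 12.70, 12.72, 12.45 and 12.44 in SLIT2 replicates 1 to 4, against 12.57, 12.60, 12.30 and 12.22 in vehicle replicates 1 to 4. Both SLIT2 samples of each set lay above both vehicle samples of that set, though the groups overlapped over all samples. The difference was 0.16 (SE 0.11, adjusted p = 0.429, and 0.00781 with the block), or 1.11-fold on the rlog scale. Without vehicle replicate 4 it was 0.09, and without vehicle replicate 2 it was 0.21. Thra, the gene of thyroid hormone receptor alpha, had 8.36, 8.37, 8.35 and 8.19 with SLIT2, against 8.62, 8.52, 8.38 and 8.45 with vehicle. The groups did not overlap, yet the difference was -0.18 (SE 0.074, adjusted p = 0.176, and 0.0664 with the block). Exons of Nr1d1 on the opposite strand share 263 bases with Thra. The sources used here do not say whether reads were counted by strand, so such shared bases leave the gene of a read uncertain. The other thyroid hormone receptor gene, Thrb, was low, between 4.37 and 4.58 with SLIT2 and between 4.52 and 4.79 with vehicle, and differed by -0.17 (adjusted p = 0.310).

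The mineralocorticoid receptor gene Nr3c2, the second receptor that binds corticosteroids, was low, between 4.13 and 4.70 with SLIT2 and between 4.23 and 4.77 with vehicle. Its difference of -0.13 had an adjusted p of 0.709 and a 95% interval of -0.52 to 0.26. Esr1, the gene of oestrogen receptor alpha, had 8.16, 8.01, 7.54 and 7.35 in SLIT2 replicates 1 to 4, against 8.03, 8.04, 7.52 and 7.51 in vehicle replicates 1 to 4. The sets differed and the groups overlapped. Its difference was -0.01, with a 95% interval of -0.50 to 0.48 (adjusted p = 0.984). Vdr, the vitamin D receptor gene, had values of 3.51 to 3.65 with SLIT2 and 3.52 to 3.76 with vehicle and was under the level tested.

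Of the orphan receptors, Rora fell. Rora encodes ROR-alpha, a receptor that binds a single hexamer and activates clock genes such as Arntl (ENSMUSG00000032238, chromosome 9, 68653786 to 69388246). Its values were 10.11, 10.07, 10.18 and 10.01 in SLIT2 replicates 1 to 4, against 10.35, 10.35, 10.45 and 10.45 in vehicle replicates 1 to 4. Every SLIT2 sample lay under every vehicle sample. The means were 10.09 ± 0.071 with SLIT2 and 10.40 ± 0.058 with vehicle (SD, n = 4 each), a difference of -0.31 (SE 0.053, adjusted p = 0.00673) or 0.808-fold. Replicates 3 and 4 gave -0.36, and replicates 1 and 2 gave -0.26. Exons of Gm15511, antisense to Rora, share 82 of its bases. The start region of Rora is shown as the promoter of the receptor that fell. It held no hexamer and no GC box on either strand, so it carries no capitals.
Rora (chr9:68653536-68653835): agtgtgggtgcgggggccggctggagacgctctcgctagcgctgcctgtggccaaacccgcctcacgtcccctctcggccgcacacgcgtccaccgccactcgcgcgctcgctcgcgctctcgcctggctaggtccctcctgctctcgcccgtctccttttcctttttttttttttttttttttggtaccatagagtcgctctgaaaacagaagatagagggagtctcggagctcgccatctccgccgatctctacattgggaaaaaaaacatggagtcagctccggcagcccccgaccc
The remaining orphan receptors differed little between the groups. Esrra, the gene of the oestrogen-related receptor alpha, which controls mitochondrial genes with PGC-1 proteins, differed by -0.04 (adjusted p = 0.917). Its values ran from 9.69 to 10.29 with SLIT2 and from 9.53 to 10.21 with vehicle, and its 95% interval of -0.44 to 0.35 is wide. The genes of the testicular receptors Nr2c1 and Nr2c2, which bind direct repeats, differed by -0.02 (adjusted p = 0.926) and -0.04 (adjusted p = 0.906). Nr2f6, a member of the COUP-TF family, differed by 0.03 (adjusted p = 0.836), with a 95% interval of -0.11 to 0.16. On the opposite strand, exons of Mrps25 share 4590 bases with Nr2c2 and those of Ocel1 share 1622 bases with Nr2f6.

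The coactivator gene Ncoa4 fell, and 3 further Ncoa genes were lower with the block. Ncoa4 was named as a coactivator of the androgen receptor and is better known as the cargo receptor that delivers ferritin to lysosomes (ENSMUSG00000056234, chromosome 14, 32159865 to 32179855). Its values were 13.89, 13.88, 13.83 and 13.91 in SLIT2 replicates 1 to 4, against 14.30, 14.30, 14.11 and 14.21 in vehicle replicates 1 to 4. The groups did not overlap and the SLIT2 samples lay between 13.83 and 13.91. The means were 13.88 ± 0.034 with SLIT2 and 14.23 ± 0.091 with vehicle (SD, n = 4 each), a difference of -0.35 (SE 0.053, adjusted p = 0.00357) or 0.783-fold. Replicates 3 and 4 gave -0.29, and replicates 1 and 2 gave -0.42. Of the 3 RefSeq start windows of Ncoa4 on the plus strand, the one with a hexamer is shown, with TGACCT (the hexamer read on the other strand) 44 bases before the start and a GC box 106 bases before it in capitals.
Ncoa4 (chr14:32165539-32165838): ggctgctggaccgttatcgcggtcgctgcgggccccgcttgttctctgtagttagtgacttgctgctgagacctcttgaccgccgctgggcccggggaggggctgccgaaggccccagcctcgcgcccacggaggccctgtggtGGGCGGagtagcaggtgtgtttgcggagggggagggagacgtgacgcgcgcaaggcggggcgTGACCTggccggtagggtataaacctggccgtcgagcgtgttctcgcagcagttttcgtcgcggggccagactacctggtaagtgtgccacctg

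The p160 family, which recruits histone acetyltransferases to receptors with bound ligand, had 3 negative differences. Ncoa3 had 12.71, 12.72, 12.60 and 12.66 in SLIT2 replicates 1 to 4, against 12.96, 12.96, 12.82 and 12.74 in vehicle replicates 1 to 4. The groups did not overlap, and the difference was -0.20 (SE 0.061, adjusted p = 0.0715, and 0.00819 with the block). It also passed without vehicle replicate 4 (adjusted p = 0.0366), with quantile normalization (adjusted p = 0.0107) and with median centring (adjusted p = 0.0352). Exons of Sulf2 on the opposite strand share 154 bases with Ncoa3. Ncoa2 had 11.40, 11.36, 11.12 and 11.12 with SLIT2, against 11.52, 11.51, 11.28 and 11.25 with vehicle. Its SLIT2 samples were the lower ones in each set, with a difference of -0.14 (SE 0.095, adjusted p = 0.412, and 0.00840 with the block). Ncoa1 differed by -0.13 (adjusted p = 0.296, and 0.113 with the block), by -0.02 in replicates 3 and 4 and by -0.25 in replicates 1 and 2. The test of that inequality gave an adjusted p of 0.0699.

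The other Ncoa genes are not related to the p160 proteins by sequence. Ncoa7, a coactivator of the oestrogen receptor with a domain linked to oxidation resistance, had 10.15, 10.15, 10.00 and 10.00 in SLIT2 replicates 1 to 4, against 10.43, 10.48, 10.12 and 10.06 in vehicle replicates 1 to 4. The groups overlapped over all samples and not within a set. The difference was -0.20 (SE 0.10, adjusted p = 0.284, and 0.0337 with the block), -0.09 in replicates 3 and 4 and -0.31 in replicates 1 and 2. Without vehicle replicate 2 it was -0.13. Hint3 shares 78 exonic bases with Ncoa7 on its strand. Ncoa5 differed by 0.09 (adjusted p = 0.629) and Ncoa6, a subunit of a histone methyltransferase complex, by 0.10 (adjusted p = 0.709). In all, 5 of the 7 Ncoa genes had a negative difference and 2 a positive one, with a median of -0.14, against a median of 0.0025 over all genes. Of the 27 members 17 were negative and 10 positive, and of the 11851 genes 5812 were negative and 5996 positive. Among the 7 Ncoa genes 1 passed without the block (14.3%, against 13.3% of all genes) and 4 with it (57.1%, against 33.0%).

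Neither the PGC-1 genes, nor Med1, nor the corepressor genes passed in either fit. Ppargc1b, a coactivator of mitochondrial genes, had 6.99, 6.82, 7.08 and 7.05 in SLIT2 replicates 1 to 4, against 6.61, 6.87, 6.88 and 6.84 in vehicle replicates 1 to 4. The groups overlapped at 1 SLIT2 sample, and the difference of 0.19 (SE 0.092) had an adjusted p of 0.252 and a 95% interval of -0.03 to 0.40. Ppargc1a, its paralog in tissues that burn fat, stood between 0.95 and 1.03 with SLIT2 and between 0.93 and 0.98 with vehicle and was not tested. Med1, the Mediator subunit that contacts receptors, differed by 0.05 (adjusted p = 0.723). Ncor1, the scaffold of the NCoR corepressor complex, differed by 0.07 (adjusted p = 0.799), with a 95% interval of -0.23 to 0.37. Nrip1, the corepressor RIP140, which binds receptors that hold their ligand, differed by -0.03 (adjusted p = 0.876), with a 95% interval of -0.24 to 0.17.

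The replicate sets differed at many of these genes. The difference of replicates 3 and 4 minus replicates 1 and 2 was larger in size than the SLIT2 difference in 17 of 27 members, 63.0%, and in 59.2% of all genes. Its median size was 0.22 for members and 0.17 for all genes. Between the sets, 10 members were lower in replicates 3 and 4 by at least 0.2, 4 were higher by at least 0.2 and 13 lay within that bound. These set differences are a description with no test. The lowest was Esr1, with a mean of 7.48 in replicates 3 and 4 and of 8.06 in replicates 1 and 2. Next came Nr3c2 with 4.24 and 4.67, Nr2c2 with 10.59 and 10.93, and Rara with 9.52 and 9.85 in the same order of sets. Nr3c1 averaged 12.35 in replicates 3 and 4, against 12.65 in replicates 1 and 2. The genes higher in replicates 3 and 4 were Pparg (10.11 and 9.35), Ncoa6 (11.57 and 11.21), Ncor1 (12.86 and 12.51) and Esrra (10.12 and 9.78). The labels do not say what a replicate number marks, so sex, animal and preparation cannot be told apart. Whether the SLIT2 effect itself differed between the sets was tested as an interaction in limma, and 0 of 27 members passed, against 4.40% of all genes. At an unadjusted p under 0.05 there were 5 members (Ppard, Rxra, Rxrb, Ncoa1 and Ncoa7), while 19.3% of all genes reached that level.

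**Figure D3:**
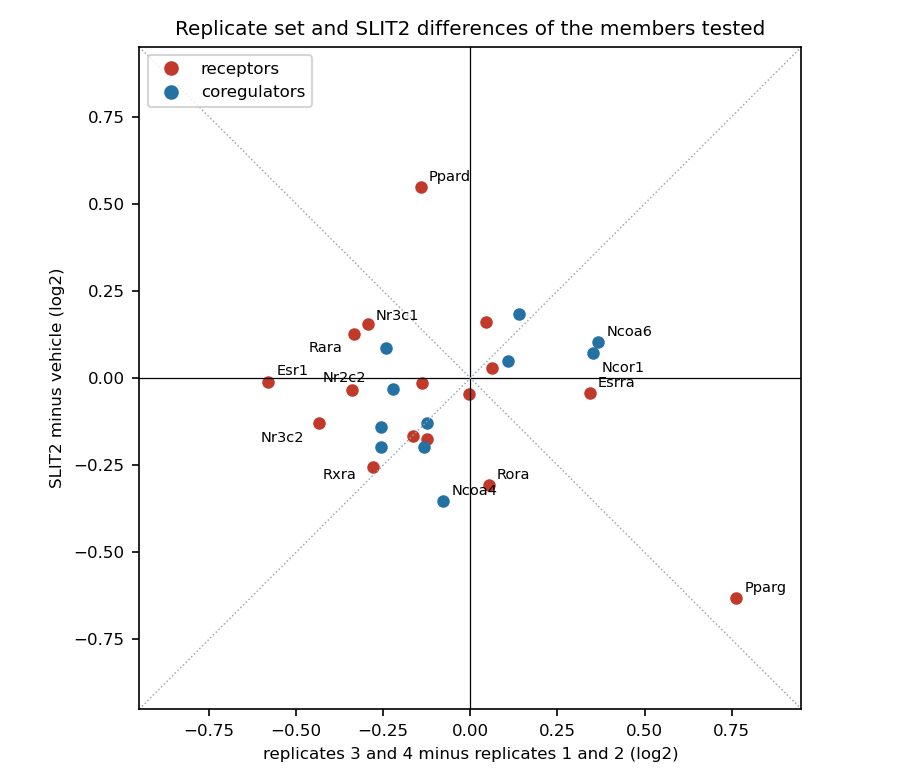
SLIT2 minus vehicle difference (log2) of the 27 members tested against the difference of replicates 3 and 4 minus replicates 1 and 2 (log2); on the dotted diagonals both are of equal size. Most points lie nearer the horizontal line through 0 than the vertical one, while Ppard, Rora and Ncoa4 lie near the vertical one and Pparg is far from both.

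Genes around the receptors were read from lists of complexes, targets and ligand enzymes. Over these lists 19 of 117 genes tested passed, 6 higher and 13 lower, or 16.2%, against 13.3% of all genes. Of 23 further nuclear receptors only Rorb and Nr6a1 reached the level tested, with differences of -0.07 and 0.07 and adjusted p-values of 0.836 and 0.901. Hdac3, the histone deacetylase of the NCoR complex, differed by 0.03 (adjusted p = 0.778).

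Of 14 coactivator histone-modifying enzymes 1 rose (7.14%, against 13.3% of all genes). Kat2b, the acetyltransferase PCAF, averaged 11.30 ± 0.055 with SLIT2 and 10.75 ± 0.11 with vehicle (SD, n = 4 each), a difference of 0.55 (SE 0.062, adjusted p = 9.65e-04). The acetyltransferase genes Crebbp and Ep300 differed by -0.09 and -0.08 (adjusted p = 0.279 and 0.792). Of 32 Mediator and Mediator kinase genes 1 rose and 1 fell (6.25%, against 13.3% of all genes). With the block 7 were higher and 3 lower (31.2%, against 33.0% of all genes). Med21, a subunit of the middle module, rose by 0.49 (SE 0.072, adjusted p = 0.00326), and Cdk19, a Mediator kinase, fell by 0.19 (adjusted p = 0.0498). The Cdk19 call was lost when any 1 library other than SLIT2 replicate 2 was left out. Among 8 chaperones of steroid receptors 1 passed (12.5%, against 13.3% of all genes). Hsp90ab1 fell by 0.19 (adjusted p = 0.0358), a call that held with 1 library left out only for vehicle replicate 3.

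Of 19 PPAR target genes tested, 5 fell and 2 rose (36.8%, against 13.3% of all genes), and the median difference was -0.17. With the block 10 were lower and 2 higher (63.2%, against 33.0% of all genes). The list was chosen with earlier results of these data known, so its shares describe these genes and do not test for an excess. Cd36, the fatty acid scavenger receptor gene, averaged 13.69 ± 0.27 with SLIT2 and 14.87 ± 0.066 with vehicle (SD, n = 4 each), a difference of -1.18 (SE 0.12, adjusted p = 6.56e-04). Plin2, which coats lipid droplets, fell by 0.78 (SE 0.089, adjusted p = 9.86e-04), Angptl4, a lipase inhibitor, by 0.97 (adjusted p = 0.0161) and Lpl, the lipoprotein lipase gene, by 0.85 (adjusted p = 0.0383). Acadl, an enzyme of fatty acid oxidation, fell by 0.17 (adjusted p = 0.0480). Fabp5, a fatty acid carrier linked to PPAR-delta, rose by 0.75 (SE 0.12, adjusted p = 0.00476). The Acadl call was lost without any 1 library. That of Lpl held only without SLIT2 replicate 4, and that of Angptl4 was lost without SLIT2 replicate 2 (adjusted p = 0.0502). The fall of Plin2 was smaller in replicates 3 and 4 than in replicates 1 and 2 (0.57 and 1.00 on the log2 scale), as was that of Angptl4 (0.42 and 1.51). 

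**Figure D4:**
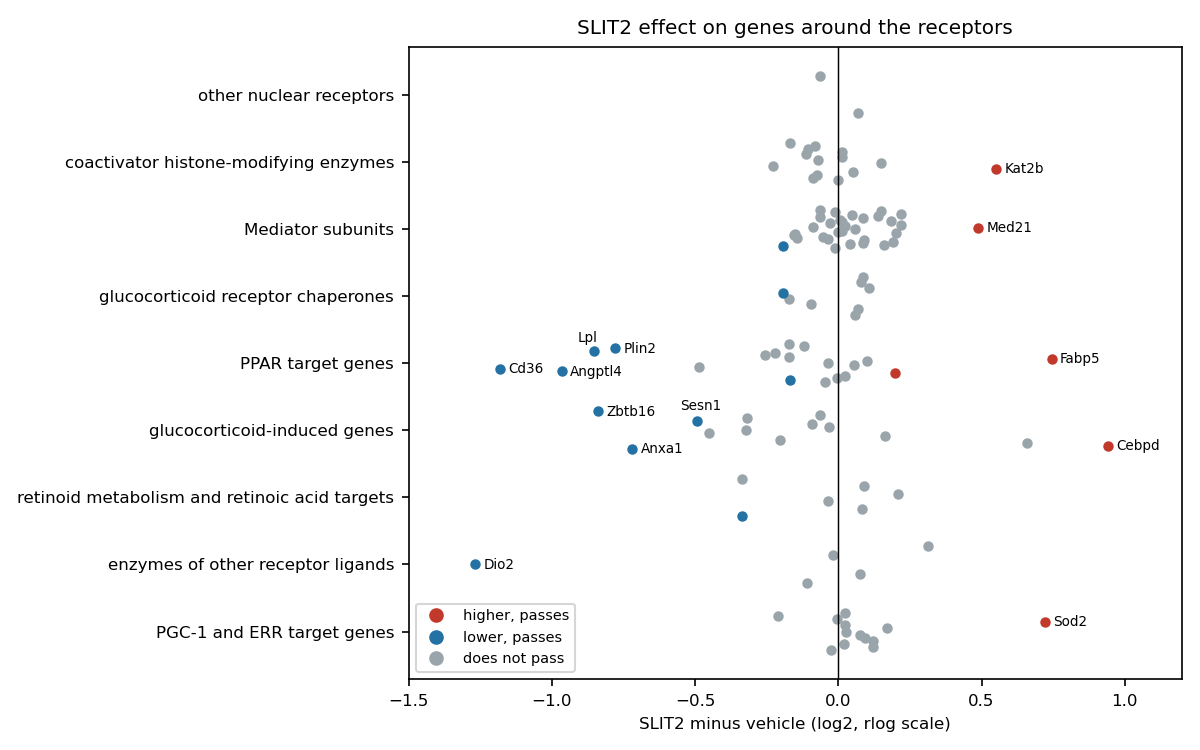
SLIT2 minus vehicle difference (log2, rlog scale) of each gene tested in the lists drawn (other receptors, coactivator enzymes, Mediator, chaperones, target genes and ligand enzymes), 1 row per list, with genes that passed in colour. Blue points lie left of 0 chiefly in the rows of PPAR targets and glucocorticoid-induced genes, and Dio2 is the lowest point.

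Of 13 glucocorticoid-induced genes tested, 3 fell and 1 rose (30.8%, against 13.3% of all genes), and the median difference was -0.20. With the block 6 were lower and 1 higher (53.8%, against 33.0% of all genes). This list too was chosen with earlier results of these data known, so its shares do not test for an excess. Anxa1, the gene of the anti-inflammatory protein annexin A1, fell by 0.72 (SE 0.050, adjusted p = 1.05e-04), Sesn1 by 0.50 (SE 0.041, adjusted p = 2.37e-04) and the zinc finger gene Zbtb16 by 0.84 (SE 0.12, adjusted p = 0.00328). Cebpd, which inflammatory signals also induce, rose by 0.94 (SE 0.17, adjusted p = 0.00851). Tsc22d3, the glucocorticoid-induced leucine zipper gene, differed by -0.07 (adjusted p = 0.449), and Fkbp5, a feedback inhibitor of the receptor, by -0.45 (adjusted p = 0.0918, and 0.0101 with the block).

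Ligand enzymes and retinoid genes were mostly under the level tested. Of 5 ligand enzyme genes tested Dio2 fell (20%, against 13.3% of all genes). It encodes the deiodinase that makes active thyroid hormone, and averaged 9.16 ± 0.18 with SLIT2 and 10.43 ± 0.27 with vehicle (SD, n = 4 each), a difference of -1.27 (SE 0.14, adjusted p = 9.86e-04). It fell by 1.63 in replicates 3 and 4, against 0.91 in replicates 1 and 2, and this inequality passed the interaction test (adjusted p = 0.0247). Of 6 retinoid genes tested 1 passed (16.7%, against 13.3% of all genes). Dhrs3, which reduces retinal, fell by 0.34 (adjusted p = 0.0448), and the call held with 1 library left out only for SLIT2 replicate 4. Dhrs3 also did not pass with quantile normalization or median centring. Of 13 PGC-1 and ERR target genes 1 rose (7.69%, against 13.3% of all genes). This was Sod2, the mitochondrial superoxide dismutase gene and also a target of inflammatory signals, which rose by 0.72 (SE 0.10, adjusted p = 0.00269). It rose by 0.53 in replicates 3 and 4, against 0.92 in replicates 1 and 2.

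Many markers of other cells were under the level tested, and several of their lists rested on few genes. All 8 lymphocyte markers and all 4 adipocyte markers were under the level tested, and 4 of 5 mast cell markers were listed at 0. The summed neutrophil markers ran from 11.9 to 12.2 with SLIT2 and from 11.3 to 11.5 with vehicle, with Ly6g and Retnlg listed at 0. Csf3r, the G-CSF receptor gene, was the only neutrophil marker that passed (0.68 higher, adjusted p = 0.00215). Summed mast cell markers ran from 4.80 to 5.18 with SLIT2 and from 5.21 to 5.68 with vehicle, and rested on Kit (-0.51, adjusted p = 0.0869, and 0.0382 with the block). Summed erythroid and megakaryocyte markers ran from 9.95 to 12.3 with SLIT2 and from 9.05 to 10.5 with vehicle. The platelet chemokine genes Pf4 and Ppbp differed by 1.36 and 1.15 (adjusted p = 0.212 and 0.0908, and 7.15e-04 and 0.0134 with the block). Of 7 dendritic cell markers 1 was tested, Xcr1, and did not pass (-0.16, adjusted p = 0.620). Among stromal markers Col3a1 was higher by 0.67 (adjusted p = 0.0422), a call that with 1 library left out held only without vehicle replicate 4. Among osteoclast markers Dcstamp was lower by 1.40 (adjusted p = 0.00615). Of the macrophage markers Mrc1 and Fcgr1 were higher by 1.18 and 1.17 (adjusted p = 0.00125 and 0.00160) and Cd68 lower by 0.25 (adjusted p = 0.0183). The Cd68 call was lost without SLIT2 replicate 2 or 3 or vehicle replicate 1 or 2. The part of these cells in the differences of the receptors and coregulators was not tested.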

How the data were processed

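The deposited values are rlog values on a log2 scale that the authors gave to 2 decimals for 41444 genes and 8 libraries. The submitters' processing notes name STAR, Salmon, DESeq2, Picard 2.23.8, SAMtools 1.7 and FastQC 0.11.9, and the builds GRCm38 and mm10. The sources used here give no settings, strand or order for them. The rlog step scales by library size and pulls low genes towards their mean, so differences of low genes are understated. Depth is unknown, and a listed 0 does not show absence.

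Genes whose mean rlog reached 4 were tested (limma 3.58.1 under R 4.3.3, mean-variance trend, two-sided, Benjamini-Hochberg over 11851 genes, threshold 0.05), SLIT2 against vehicle, with treatment only, beside 21 alternatives. Intervals are 95% intervals of that fit. Differences between the replicate sets were tested as an interaction. Deviations from the group means correlated between samples of the same number (0.637, 0.671, 0.753 and 0.587 across genes for numbers 1 to 4), and the block fit is given beside the treatment-only fit for that reason. SLIT2 replicates 1 and 4 correlated more strongly with a vehicle sample of another number, so these correlations do not single out the number over the replicate set. The labels do not tie replicates to separate cultures or animals, so p-values measure only the spread among these samples, which can be technical. Were each replicate set 1 source, a group would hold 2 sources.

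Coordinates and exon overlaps came from GENCODE M21 (GRCm38) and promoters from RefSeq (GRCm38.p6). The steps were tested on simulated data. The members, lists and tests were chosen with earlier results of these data known. The text gives values for all 31 members, up to 3 genes per list that passed, with the smallest p, and the cell markers that passed. Angptl4, Lpl, Acadl, Cebpd and list genes that did not pass were named after their values were seen, as were Xist, Ddx3y and the motifs. Some list genes are counted in totals but not reported here by name. Of the list genes 1 had no row in the table. Figures were drawn with matplotlib 3.10.9.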

Additional observations from a re-analysis of the deposited data

Results flagged for a closer look

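Among 54 groups of 4 values (27 members in SLIT2 and in vehicle), 2 held a sample far from the other 3, where chance flags about 1 in 20 such groups. SLIT2 replicate 4 of Thra was at 8.19, and the next SLIT2 sample was at 8.35. Vehicle replicate 1 of Ppargc1b was at 6.61, and the next vehicle sample was at 6.84.

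The SLIT2 effect differed between the replicate sets by limma's interaction test at 6 named genes, none of them a receptor or coregulator. The effect in replicates 3 and 4 minus that in replicates 1 and 2 was 0.43 for Plin2, 1.09 for Angptl4, -0.72 for Dio2, -0.40 for Sod2, 0.31 for Mrc1 and 0.46 for Fcgr1. Each kept its direction in both sets. The adjusted p-values were 0.0127, 0.00667, 0.0247, 0.0447, 0.0365 and 0.0156 in that order, and the test rests on the spread within duplicates.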

How the results depend on the processing

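In limma 1581 genes passed, and the count was 3912 with the replicate block, 4652 with the set as block, 688 with duplicates averaged, 3962 in replicates 1 and 2 alone and 2880 in replicates 3 and 4 alone. It ran from 1021 (without SLIT2 replicate 2) to 1254 with 1 library left out. For the receptors and coregulators the count of 3 became 11, 14, 0, 10 and 8 in the same 5 settings, and ran from 3 to 4 with 1 library left out. With duplicates averaged, which leaves 1 residual degree of freedom, limma gave Ppard, Rora and Ncoa4 adjusted p-values of 0.0606, 0.0699 and 0.0656. In the other 20 alternatives these 3 genes passed. With duplicates averaged, 8 of 27 members had an unadjusted p under 0.05 in limma, while 29.4% of all genes reached that level. For the pathway lists the count of 19 became 43, 52, 8, 47 and 38, and ran from 13 to 17 with 1 library left out. The block gained 8 members and lost none of the 3, and over all genes it kept the 1581. The count of genes with an unequal effect in the sets was 521, and it was 294 with no filter on low values, 116 without the mean-variance trend and 122 to 579 with 1 library left out, where leaving out any library other than vehicle replicate 3 lowered it by over 1.5 times. Under every alternative run, a call of a named gene was never reversed in sign. The median difference of all genes was 0.0025, and -0.00516 and -0.005 with quantile normalization and median centring. The unknown depth means that the precision of low genes such as Thrb and Nr3c2 is known only from the spread between samples.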
